A study of Mus musculus with 4 samples.

Results

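The antiviral interferon-stimulated genes are a set of 34 mouse genes named by symbol, chosen as type I interferon-type antiviral genes with the immunity-related and guanylate-binding GTPases, interferon regulatory factors and STATs left out. Of the 34, 32 had a row in the deposited table of 17039 genes, and all 32 passed the filter on low counts that left 12887 genes for testing. The Mx GTPases Mx1 and Mx2 are not analysed here. Expression was measured by RNA sequencing of T cells from the spleens of 4 C57BL/6 mice, which the series title calls CD8+. Both groups received a recombinant adeno-associated virus by intramuscular injection about a month before magnetic separation of the cells, 2 mice a virus carrying interleukin-27 (the AAV-IL-27 group) and 2 a control virus (the AAV-ctrl group). Each group has replicates 1 and 3, each from its own mouse, and values of a group are given in that order. The age of the mice, the promoter of the virus and the antibodies of the separation are not stated in the labels.

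Interferon-stimulated genes are switched on when type I interferon engages its receptor and the kinases JAK1 and TYK2 activate a transcription factor complex, ISGF3, which holds STAT2 and IRF9 and occupies the interferon-stimulated response element (ISRE) in promoters. Interferon gamma acts mainly through another element, the gamma-activated site (GAS), and interleukin-27, a cytokine of myeloid cells that signals through IL27RA and gp130, activates STAT3 in T cells. Products of the antiviral genes sense viral RNA, block its translation, degrade it, or hinder entry and budding of virus.

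Sequencing depth was close to even, with 15742476 to 16182426 counts per library. Cd8a stood at 321 to 408 FPKM (counts per gene length and library size) and Cd4 at 8.21 to 10.1 FPKM, so CD8 transcripts exceeded those of CD4. The B cell gene Cd79a stood at 251 and 370 FPKM in AAV-IL-27 and at 630 and 530 in AAV-ctrl, above Cd8a in both controls. Of 12 T cell markers 7 rose and 1 fell, with sums of 5570 and 4954 CPM (counts scaled to library size) against 4964 and 5050. The libraries also held transcripts of other cells. The 12 neutrophil markers summed to 805 and 1308 CPM in AAV-IL-27 against 53.3 and 43.0 in AAV-ctrl, and 10 of the 12 rose. The 8 B cell markers summed to 1806 and 2496 against 3595 and 3175, with 3 lower past the threshold, and of the 8 natural killer markers 6 fell and 2 rose. Of the 12 monocyte and macrophage markers 5 fell and 1 rose, with sums of 199 and 266 against 262 and 209. The 5 conventional dendritic cell markers summed to 478 and 353 CPM against 271 and 303, and 1 of them rose. No marker of these lists was at 0 in every library. The part of these cells in the results on the antiviral genes was not tested, and in such bulk samples fewer cells of a type and less RNA per cell cannot be told apart.

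Most antiviral genes were higher in AAV-IL-27, by small factors. By edgeR's quasi-likelihood test at an adjusted p of 0.05, 19 of the 32 rose, where 21.3% of all tested genes did, and 2 fell, where 17.7% did. The other 11 did not pass. The median log2 fold change was 0.53, against -0.01 over all tested genes, and 5 of the 32 rose 2-fold or more, against 5.25% of tested genes. In normalized CPM the groups did not overlap, with AAV-IL-27 higher, for 25 of the 32 genes (35.7% of tested genes) and, with AAV-IL-27 lower, for 2 (35.8%). One of the 25, Ifit3, overlapped in FPKM. Summed over the 32 genes, the level was 1165 and 1164 FPKM in AAV-IL-27 and 993 and 925 FPKM in AAV-ctrl. Single genes ranged from Ifi44 at 0.83 FPKM in its lowest library to Sp100 at 344 FPKM in its highest.

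**Figure D1:**
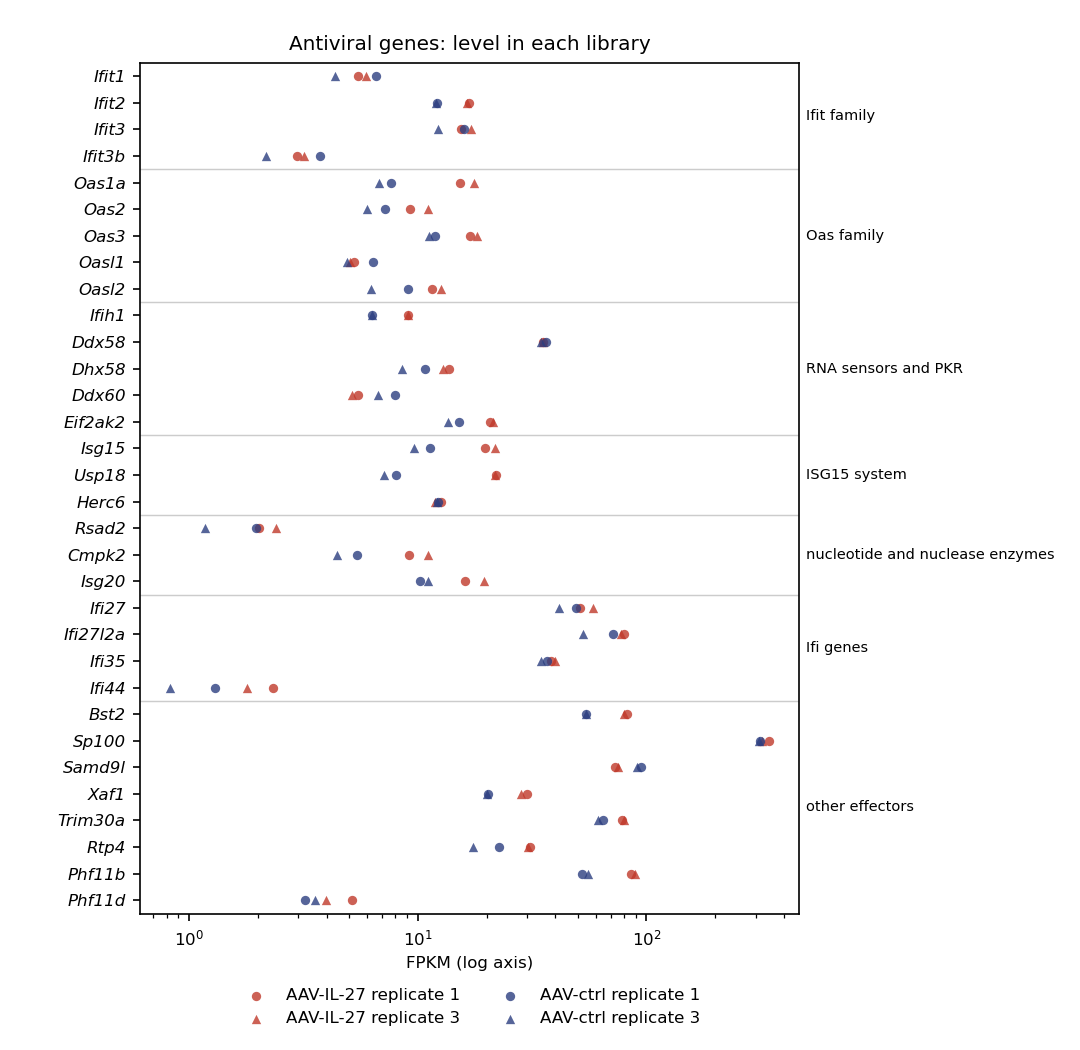
Level of each of the 32 antiviral genes in each library, in FPKM on a log axis, grouped by role. Circles are replicate 1 and triangles replicate 3, with AAV-IL-27 in red and AAV-ctrl in blue. Usp18 and Oas1a show the widest gaps between colours, while for Ifit1 and Ifit3b the 2 red points lie between the blue ones.

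The promoters show what many of these genes share. RefSeq windows from 250 bases before to 50 bases after an annotated start (GRCm38.p6) were found for 26 of the 32 genes. The ISRE core was searched as GAAA, any 2 bases and GAAA again, and the GAS as TTCNNNGAA, on both strands, and matches of either could overlap each other. The Isg15 window is shown whole because it holds 3 overlapping cores upstream of a gene that rose, and the Ddx60 window because it holds 2 cores upstream of a gene that fell. Capitals mark the ISRE cores, and each sequence runs 5′ to 3′ on the gene's strand.
Isg15, chr4:156200769-156201068, minus strand: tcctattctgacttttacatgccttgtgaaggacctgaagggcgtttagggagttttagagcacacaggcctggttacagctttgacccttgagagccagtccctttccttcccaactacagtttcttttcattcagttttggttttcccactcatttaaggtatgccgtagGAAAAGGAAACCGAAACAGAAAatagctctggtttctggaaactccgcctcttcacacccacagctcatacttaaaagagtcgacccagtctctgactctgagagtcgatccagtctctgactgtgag
Ddx60, chr8:61927837-61928136, plus strand: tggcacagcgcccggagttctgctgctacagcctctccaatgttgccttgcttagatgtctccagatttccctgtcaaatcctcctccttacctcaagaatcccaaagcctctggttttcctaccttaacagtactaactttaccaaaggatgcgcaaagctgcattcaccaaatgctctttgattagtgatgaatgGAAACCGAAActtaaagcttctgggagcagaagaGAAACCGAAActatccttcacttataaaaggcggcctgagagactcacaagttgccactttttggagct

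Shorter stretches show the core nearest the start, in capitals, in genes with different outcomes. Oas1a and Bst2 rose, while Ifit1, Ifit3 and Ifit3b, whose cores lie on the opposite strand, did not pass.
Oas1a, chr5:120907510-120907559, minus strand: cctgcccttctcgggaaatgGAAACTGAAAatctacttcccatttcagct
Bst2, chr8:71537567-71537616, minus strand: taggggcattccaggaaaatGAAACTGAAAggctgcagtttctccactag
Ifit1, chr19:34640784-34640833, plus strand: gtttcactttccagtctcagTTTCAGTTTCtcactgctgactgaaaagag
Ifit3, chr19:34583387-34583436, plus strand: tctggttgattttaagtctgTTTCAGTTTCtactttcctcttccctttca
Ifit3b, chr19:34607783-34607832, plus strand: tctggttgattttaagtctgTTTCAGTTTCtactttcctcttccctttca
The stretches of Ifit3 and Ifit3b are the same in all 50 bases.

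An ISRE core was present for 14 of the 26 genes (53.8%), against 3.97% of the 10278 tested genes with a window. By outcome it was present for 8 of the 15 genes that rose, 5 of the 9 that did not pass and 1 of the 2 that fell, so genes with and without a core were found in each class. A GAS was present for 6 of the 26 (23.1%), against 8.52% of tested genes. These 6 were Bst2, Eif2ak2, Ifit2, Isg20 and Oas1a, which rose, and Ifi35, which did not pass. A match is a run of letters and not a measured site, and genes of this set are known for the ISRE, so the share is a description.

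**Figure D2:**
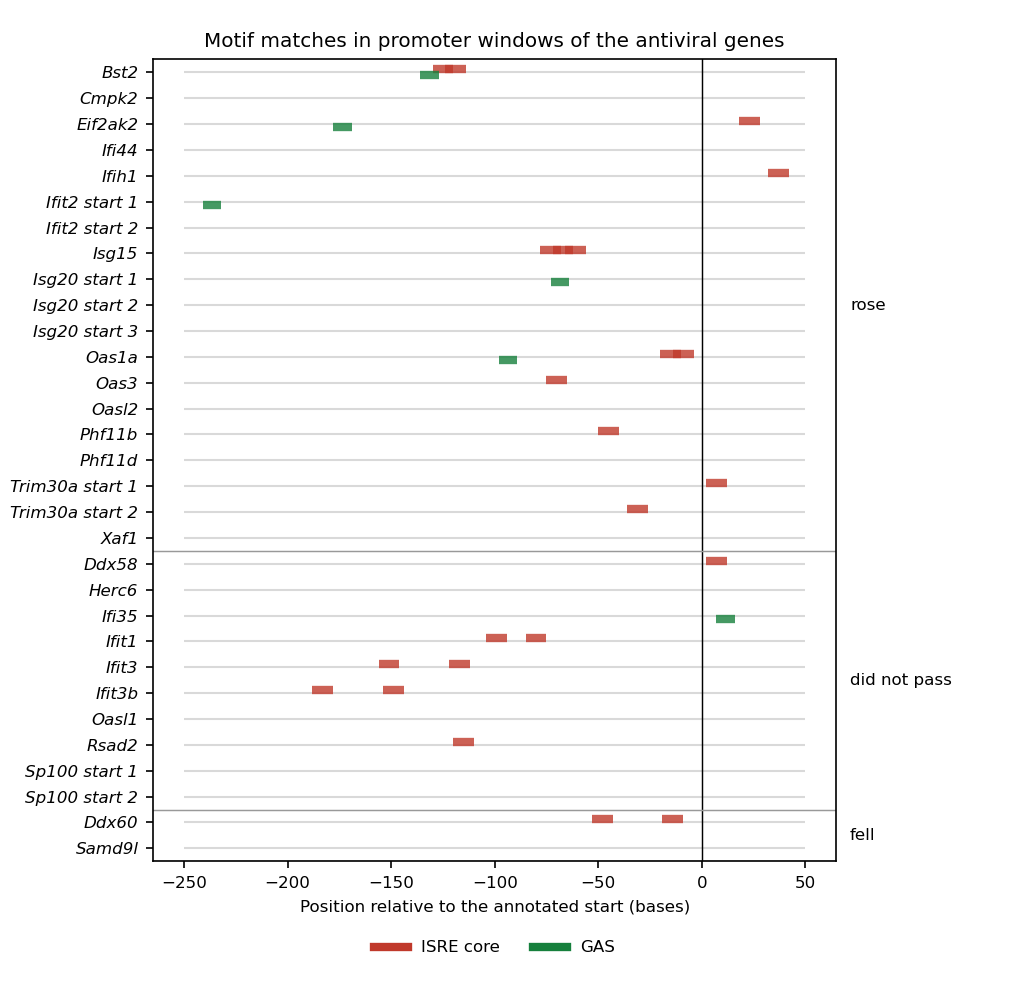
Positions of ISRE cores (red) and GAS matches (green) in the 31 promoter windows of 26 antiviral genes, as distance in bases from the annotated start (vertical line), sorted by outcome in AAV-IL-27. Isg15, Oas1a and Bst2 carry overlapping cores, and cores are seen among genes that rose, fell or did not pass.

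The Ifit genes encode tetratricopeptide proteins that bind viral RNA and block its translation, and lie together on chromosome 19 in the order Ifit2, Ifit3, Ifit3b and Ifit1 (34550550 to 34650009). Ifit2 rose, and the other 3 did not pass. Ifit2 stood at 16.7 and 16.5 FPKM in AAV-IL-27 and at 12.2 and 12.03 in AAV-ctrl, with a log2 fold change of 0.50 ± 0.059 (SE, edgeR adjusted p = 0.000214). Both libraries of each group were nearly level and the groups stood apart.

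Ifit1 stood at 5.47 and 5.94 FPKM against 6.57 and 4.34, with AAV-IL-27 between the 2 controls (0.11 ± 0.19, adjusted p = 0.686). Ifit3b showed the same arrangement, at 2.96 and 3.18 FPKM against 3.75 and 2.18 (0.10 ± 0.24, adjusted p = 0.779). Ifit3 was at 15.5 and 17.0 FPKM against 15.9 and 12.3 (0.27 ± 0.12, adjusted p = 0.13). In all 3 genes AAV-ctrl replicate 1 was the higher control. Their expected counts were not whole in any library, so some reads were divided with other genes or transcripts in the authors' counting. Single values are therefore uncertain. This limit also holds for Oas1a, Oas3, Eif2ak2, Isg15, Ifi44, Xaf1, Trim30a, Rtp4, Phf11b and Phf11d, which rose. It holds too for Ddx58, Sp100, Ifi27 and Ifi27l2a, which did not pass. Without AAV-ctrl replicate 1, Ifit3 rose by 0.46 (adjusted p = 0.0284), and without AAV-ctrl replicate 3 its log2 fold change was 0.09 (adjusted p = 0.587).

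Oas genes encode oligoadenylate synthetases, which on binding double-stranded RNA make a messenger that starts the decay of RNA, and their catalytically inactive relatives. Of 5, 4 rose. Oas1a (chromosome 5, 120896256 to 120907544) stood at 15.3 and 17.6 FPKM in AAV-IL-27 and at 7.67 and 6.8 in AAV-ctrl, a 2.38-fold rise (1.254 ± 0.11, edgeR adjusted p = 3.03e-05). Both AAV-IL-27 libraries lay well above both controls, though the expected counts of Oas1a were not whole in any library.

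Oas2 went from 7.21 and 6.01 to 9.24 and 11.2 FPKM (0.65 ± 0.13, adjusted p = 0.00569) and Oas3, its neighbour, from 11.9 and 11.2 to 16.9 and 18.2 FPKM (0.65 ± 0.064, adjusted p = 6.1e-05). Oasl2, an oligoadenylate synthetase-like gene, went from 9.08 and 6.28 to 11.6 and 12.7 FPKM (0.69 ± 0.14, adjusted p = 0.00643). Oasl1, next to Oasl2 on chromosome 5 and known to restrain translation of Irf7, had overlapping groups at 5.29 and 5.06 FPKM against 6.40 and 4.90 (-0.09 ± 0.15, adjusted p = 0.674). The difference between these neighbours was not tested.

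The RNA sensors and the genes grouped with them did not all move alike. Ifih1, which encodes the long-RNA sensor MDA5, rose from 6.30 and 6.29 to 9.08 and 9.05 FPKM (0.57 ± 0.073, edgeR adjusted p = 0.000332). Its 2 groups were tight and clearly apart. Ddx58, which encodes the short-RNA sensor RIG-I, was level at 35.2 and 35.1 FPKM against 36.4 and 34.7 (0.04 ± 0.049, adjusted p = 0.608), the smallest absolute log2 fold change of the 32 genes.

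Dhx58, whose product LGP2 regulates MDA5 and RIG-I, rose from 10.7 and 8.57 to 13.7 and 12.9 FPKM (0.51 ± 0.11, adjusted p = 0.00566), but not past the threshold without AAV-ctrl replicate 3 (adjusted p = 0.0517). Eif2ak2 encodes PKR, the kinase that halts translation on double-stranded RNA, and rose from 15.1 and 13.6 to 20.7 and 21.3 FPKM (0.58 ± 0.063, adjusted p = 0.000116). Ddx60, a helicase described as a helper of RIG-I, fell, with 5.48 and 5.17 FPKM in AAV-IL-27 and 7.93 and 6.74 in AAV-ctrl (-0.38 ± 0.083, adjusted p = 0.00571). Its groups did not overlap, yet the call was lost without AAV-ctrl replicate 1 (adjusted p = 0.0742).

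Genes of the ISG15 system, a ubiquitin-like modifier and its enzymes, held the largest rise of the set. Usp18 (chromosome 6, 121245906 to 121270917) removes ISG15 from proteins and damps signalling at the type I interferon receptor. It stood at 22.1 and 21.7 FPKM in AAV-IL-27 and at 8.07 and 7.13 in AAV-ctrl, a 2.98-fold rise (1.58 ± 0.088, edgeR adjusted p = 1.85e-06). Usp18 shares 7.0% of its exon bases with Gm44148 on the opposite strand. Isg15 itself (chromosome 4, 156199424 to 156200818), whose promoter is shown above, went from 11.3 and 9.64 to 19.6 and 21.9 FPKM (1.04 ± 0.14, adjusted p = 0.000375).

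Herc6, the main ISG15 ligase of mice, had overlapping groups at 12.7 and 11.9 FPKM against 12.3 and 12.1 (0.06 ± 0.06, adjusted p = 0.475). It shares 26.6% of its annotated exon bases with the gene model Gm45193 on the same strand, so its count may hold reads of that model. The enzymes upstream of it rose, Uba7, the activating enzyme, by 0.41 ± 0.049 on the log2 scale and Ube2l6, the conjugating enzyme, by 0.54 ± 0.087.

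Cmpk2 and Rsad2 are neighbours on chromosome 12, transcribed away from each other, and encode a nucleotide kinase and viperin, which makes a chain-terminating nucleotide from the kinase's product. Cmpk2 stood at 9.14 and 11.1 FPKM in AAV-IL-27 and at 5.45 and 4.43 in AAV-ctrl (1.12 ± 0.13, edgeR adjusted p = 0.00032), a 2.17-fold rise. Rsad2 was at 2.02 and 2.40 FPKM against 1.96 and 1.18 (0.54 ± 0.24, adjusted p = 0.105). The groups of Rsad2 did not overlap, but its controls lay 1.65-fold apart, and without AAV-ctrl replicate 1 it rose by 0.95 (adjusted p = 0.0333), while without AAV-ctrl replicate 3 its log2 fold change was 0.22 (adjusted p = 0.51). Isg20, an RNA exonuclease, rose from 10.2 and 11.1 to 16.1 and 19.5 FPKM (0.75 ± 0.13, adjusted p = 0.00162).

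Of 4 genes with Ifi names, 1 passed. Ifi44, a little-expressed gene of unclear function, stood at 2.34 and 1.80 FPKM against 1.30 and 0.83 (1.03 ± 0.25, edgeR adjusted p = 0.0101). Its call was lost when AAV-ctrl replicate 3 was left out (adjusted p = 0.107). Ifi27 was at 51.3 and 58.4 FPKM against 49.3 and 41.4 (0.31 ± 0.11, adjusted p = 0.0521), and Ifi27l2a at 79.4 and 77.0 against 71.7 and 52.7 (0.37 ± 0.14, adjusted p = 0.0799). Both AAV-IL-27 libraries lay above both controls in each gene, and the higher control was replicate 1. The spans of Ifi27 (103434189 to 103440245) and Ifi27l2a (103433873 to 103443680) overlap on opposite strands of chromosome 12. No exon bases shared between the 2 genes were found in GENCODE M21. Their expected counts were not whole in any library, so single values are uncertain. Without AAV-ctrl replicate 1 both rose (adjusted p = 0.0316 and 0.00686), as did Ifi27 without AAV-IL-27 replicate 1 (adjusted p = 0.0172) and Ifi27l2a with a replicate block (adjusted p = 0.0292), where Ifi27 was at an adjusted p of 0.116. Without AAV-ctrl replicate 3 the log2 fold changes were 0.18 for Ifi27 (adjusted p = 0.274) and 0.16 for Ifi27l2a (adjusted p = 0.276). Ifi35, an interactor of other induced proteins, was at 38.3 and 39.9 FPKM against 36.7 and 34.4 (0.19 ± 0.066, adjusted p = 0.0509). It shares 17.4% of its exon bases with Gm11626 on the opposite strand. With no filter on low counts Ifi27 and Ifi35 passed (adjusted p = 0.0481 and 0.0499).

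Among the other effectors 6 of 8 rose. Bst2, which encodes tetherin, a protein that holds budding virus at the cell surface, went from 54.3 and 54.5 to 82.1 and 79.8 FPKM (0.62 ± 0.063, edgeR adjusted p = 7.28e-05). Bst2 is also a surface marker of plasmacytoid dendritic cells, of whose 7 other markers 1 rose and 2 fell, with sums of 470 and 417 CPM against 469 and 503. The marker that rose was Lair1, and those that fell were Klk1 and Ccr9. Of those that did not pass, Siglech stood at 49.9 and 37.5 FPKM against 44.2 and 51.0. Cox6a2 stood at 12.7 and 6.78 FPKM against 6.29 and 6.22. The part of those cells in the rise of Bst2 was not tested.

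Phf11b, of a family of zinc finger proteins on chromosome 14, went from 52.4 and 55.8 to 85.9 and 89.2 FPKM (0.72 ± 0.056, edgeR adjusted p = 1.43e-05). Its neighbour Phf11d was at 5.14 and 3.97 FPKM against 3.22 and 3.56 (0.48 ± 0.16, adjusted p = 0.0376), the weakest call of the set. That call was lost without AAV-IL-27 replicate 1 (log2 fold change 0.28, adjusted p = 0.188), AAV-ctrl replicate 1 (0.40, adjusted p = 0.228) or AAV-ctrl replicate 3 (0.55, adjusted p = 0.121), and by DESeq2 (0.48, adjusted p = 0.171).

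Rtp4, a chaperone of receptors, rose from 22.8 and 17.4 to 31.1 and 30.4 FPKM (0.65 ± 0.12), and Xaf1, a promoter of cell death, from 20.3 and 20.1 to 29.96 and 28.2 FPKM (0.58 ± 0.072). Trim30a, a regulator of innate signalling, rose from 64.3 and 61.2 to 78.0 and 79.6 FPKM (0.38 ± 0.049). The edgeR adjusted p-values of these 3 were 0.00451, 0.000258 and 0.000317. Each had both AAV-IL-27 libraries above both controls, and expected counts that were not whole in any library. Rtp4 shares 15.2% of its exon bases with Gm45338 on the same strand, so its count may hold reads of that model.

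Samd9l, an inhibitor of translation whose mutation in people disturbs blood formation, was the other gene that fell. It stood at 72.9 and 74.9 FPKM in AAV-IL-27 and at 95.1 and 90.7 in AAV-ctrl (-0.28 ± 0.048, adjusted p = 0.00162 by edgeR). It stayed past the threshold when any 1 library was left out (adjusted p from 0.00205 to 0.0463). Sp100, a nuclear body protein and the most highly expressed of the 32 genes, was at 344 and 321 FPKM against 315 and 311 (0.12 ± 0.049, adjusted p = 0.087). Without AAV-IL-27 replicate 3 it rose by 0.16 (adjusted p = 0.0168), and without AAV-IL-27 replicate 1 its log2 fold change was 0.07 (adjusted p = 0.261).

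**Figure D3:**
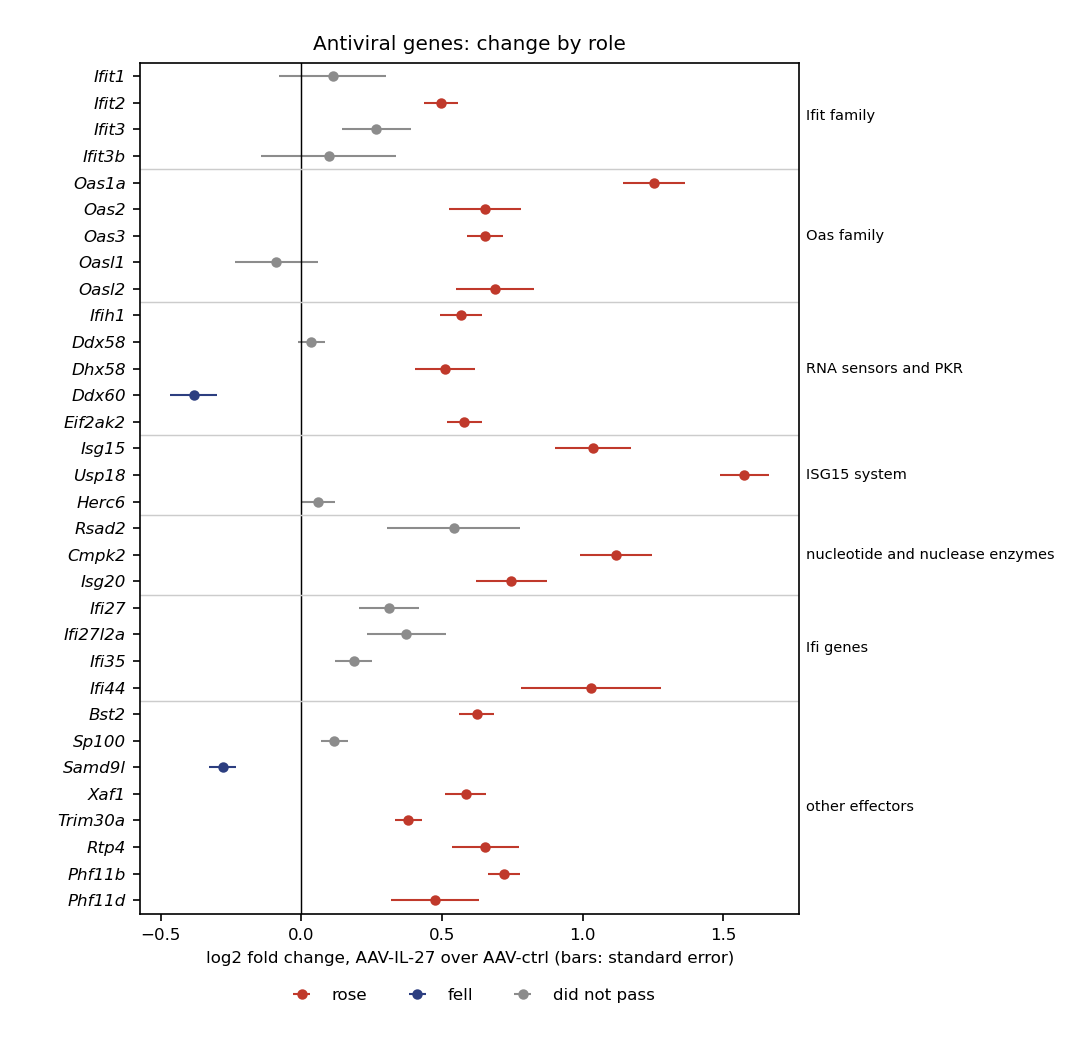
Log2 fold change of AAV-IL-27 over AAV-ctrl for the 32 antiviral genes, with bars of 1 standard error, grouped by role and coloured by the call of edgeR's test. Usp18 lies farthest right at 1.58, and Ddx60 and Samd9l lie left of 0 at -0.38 and -0.28.

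The 2 controls were not level in these genes. After normalization 29 of the 32 genes were higher in AAV-ctrl replicate 1 than in replicate 3 (90.6%, against 50.8% of tested genes), with a median ratio of 1.10. The exceptions were Bst2, Phf11b and Phf11d. Ratios were widest for Ifit3b (1.67), Rsad2 (1.65), Ifi44 (1.52) and Ifit1 (1.51). All 11 genes that did not pass were higher in AAV-ctrl replicate 1, by a median of 1.29-fold, and for 7 of the 11 the controls differed from each other by more than the groups did on the log2 scale, as for none of the 19 that rose. Wide control pairs count against a call in the test, so this split partly follows from the test itself. Over the whole set the controls differed by more than the groups for 7 of 32 genes (21.9%), beside 25.7% of all tested genes. The AAV-IL-27 pair did not lean towards replicate 1, with 13 of the 32 genes higher in it (40.6%, against 49.9% of tested genes).

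Leaving out 1 control moved the calls of the set. Without AAV-ctrl replicate 1, 22 of the 32 rose and 1 fell (12.5% and 7.5% of tested genes), and without AAV-ctrl replicate 3, 16 rose and 2 fell (12.8% and 7.97%). The median log2 fold change was 0.62 and 0.48. Of the 19 genes that rose, 16 passed in each of the 4 fits with a library left out. In the same controls, replicate 1 had higher marker sums for monocytes and macrophages (262 against 209 CPM), B cells (3595 against 3175) and erythroid cells (61.0 against 33.2). The same held for neutrophils (53.3 against 43.0), natural killer cells (292 against 287) and CD4 T cells (77.5 against 72.9). Sums were lower in replicate 1 for conventional dendritic (271 against 303), plasmacytoid dendritic (469 against 503) and T cells (4964 against 5050). The part of these cells in the control difference was not tested. Of other lists, 6 of 7 immunity-related GTPase genes, 4 of 9 guanylate-binding protein genes and 23 of 42 interferon pathway genes were higher in AAV-ctrl replicate 1.

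**Figure D4:**
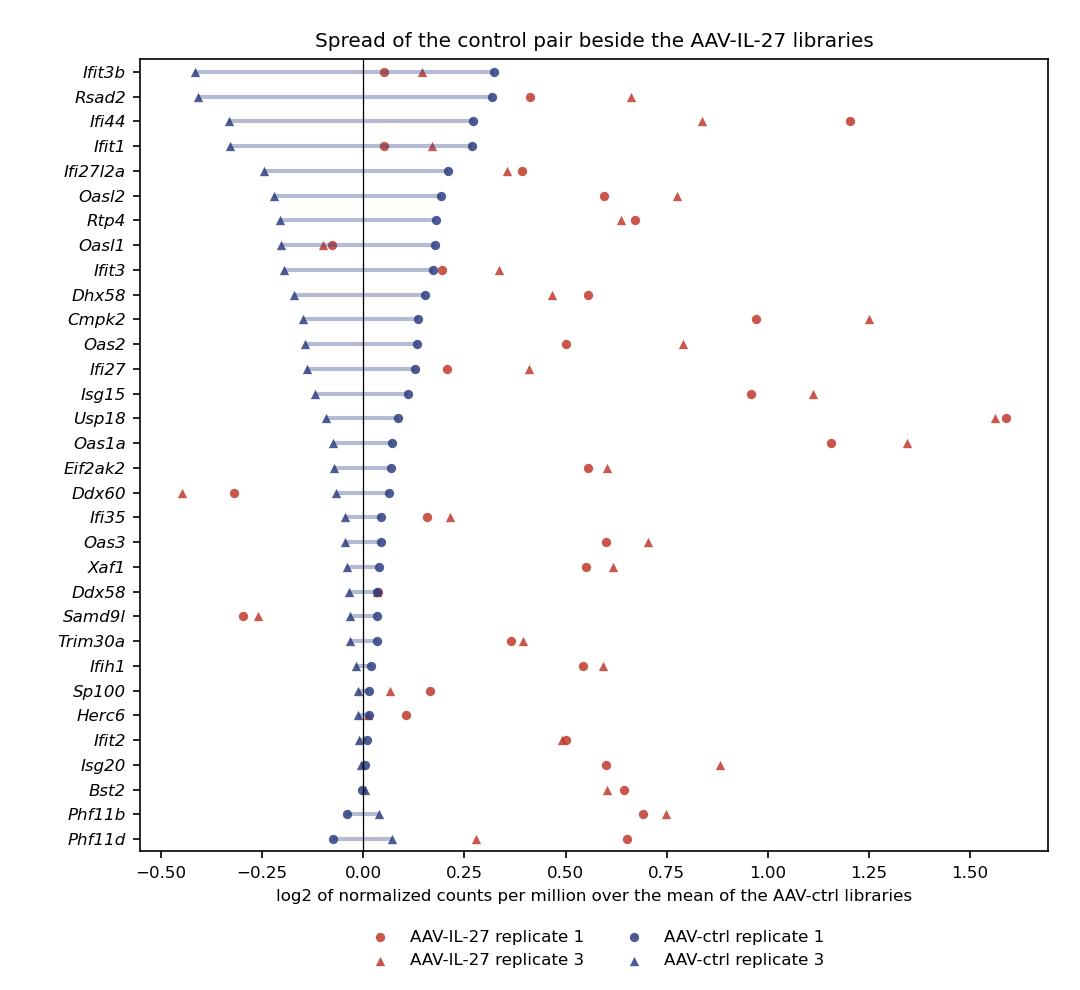
Normalized CPM of each antiviral gene, as log2 over the mean of the AAV-ctrl libraries, sorted by how far AAV-ctrl replicate 1 (blue circle) lies above replicate 3 (blue triangle). The blue bar joins the controls. At the top Ifit3b has controls 1.67-fold apart with the red AAV-IL-27 points inside the bar, while Bst2 and Ifih1 have level controls and red points to the right.

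Of the interferon pathway around these genes, a list of 51 symbols had 42 tested, of which 20 rose, 8 fell and 14 did not pass, beside 21.3% and 17.7% of all tested genes that rose and fell. Of 8 ligands 1 had a row and was tested, and the levels of the others, among them the type I interferons, are not reported here. The ligand tested was Ifng, interferon gamma, which rose from 6.36 and 6.06 to 37.4 and 33.5 FPKM (2.56 ± 0.099, edgeR adjusted p = 2.24e-07). Of 6 receptor chains Ifnar2 rose (0.39 ± 0.053), Ifngr2 fell (-0.78 ± 0.12) and 4 did not pass, among them Ifnar1 at 42.7 and 38.9 FPKM against 41.7 and 41.4. Jak2 rose and Jak1 fell, while Tyk2 did not pass.

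Stat2 and Irf9, parts of ISGF3, rose by unequal amounts. Stat2 stood at 34.1 and 35.2 against 24.2 and 23.1 (0.60 ± 0.051, edgeR adjusted p = 2.56e-05) and Irf9 at 62.5 in both libraries against 59.3 and 52.1 (0.22 ± 0.063, adjusted p = 0.0241). Irf9 passed in 2 of the 4 fits with a library left out. Irf7, the factor that amplifies type I interferon, rose by 0.42 ± 0.074, and Irf3 and Irf5 fell by 0.19 ± 0.055 and 0.23 ± 0.054, Irf3 in only 1 of those 4 fits. Of 12 tested sensing adaptors and kinases 3 rose (Tmem173, Myd88 and Tlr3), 2 fell (Ikbke and Traf3) and 7 did not pass, among them Mavs, the adaptor of RIG-I and MDA5. These counts are near the 21.3% and 17.7% of all tested genes, and Traf3 passed in 1 of the 4 fits. The feedback inhibitors Socs1 and Socs3 rose by 1.94 ± 0.11 and 1.77 ± 0.066.

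Relatives of the antiviral genes from the same families were also looked at. Among the 17 with a test there were 7 that rose and 2 that fell (21.3% and 17.7% of all tested genes), and 8 did not pass. Ifit1bl1, a relative of Ifit1 whose annotated span on chromosome 19 (34592888 to 34662981) covers Ifit3b and Ifit1, went from 33.0 and 32.7 to 84.7 and 72.3 FPKM (1.31 ± 0.075, edgeR adjusted p = 5.23e-06), where Ifit1 did not pass. Phf11a rose from 9.34 and 9.65 to 26.6 and 22.2 FPKM (1.41 ± 0.11, adjusted p = 1.39e-05), and Sp140 rose by 0.84 ± 0.048. Oas1c, on chromosome 5 like Oas1a, fell, with 8.51 and 7.70 FPKM against 11.9 and 10.7 (-0.43 ± 0.092, adjusted p = 0.00565). It passed in 3 of the 4 fits with a library left out, and these relatives share reads, so single values are uncertain.

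Beside the GTPase families the antiviral genes moved less. The 7 immunity-related GTPase genes tested all rose, with a median log2 fold change of 1.53 and a range of 1.248 to 4.62, and the 9 guanylate-binding protein genes all rose, with a median of 1.58 and a range of 0.42 to 2.95. Among the 32 antiviral genes the range was -0.38 to 1.58. In promoters, an ISRE core was present for 5 of 6 immunity-related GTPase genes with a window and a GAS for 4 of 6, and for guanylate-binding proteins these were 4 of 4 and 2 of 4. No test of the difference between the families was made.

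**Figure D5:**
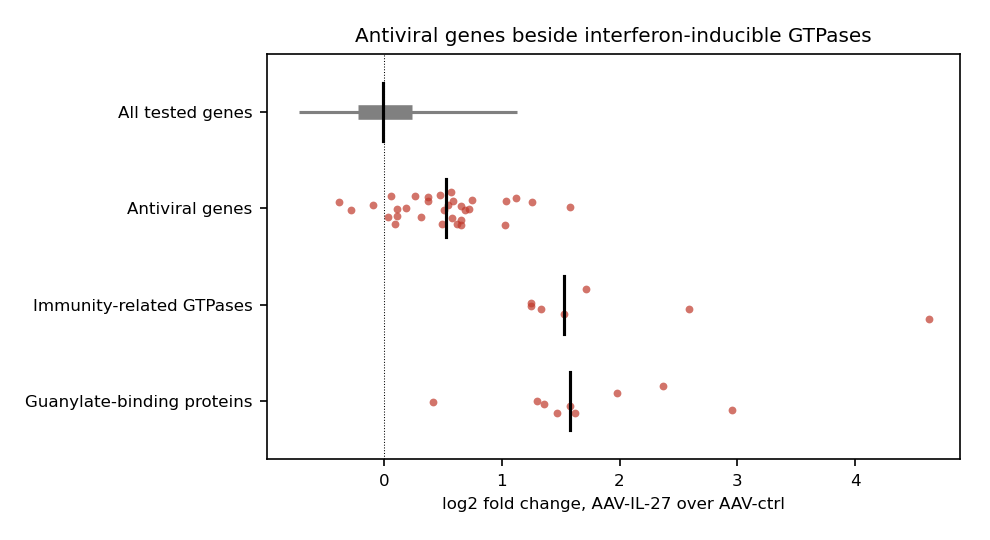
Log2 fold change of AAV-IL-27 over AAV-ctrl for single genes (red points) of the antiviral set, the immunity-related GTPases and the guanylate-binding proteins, with black lines at the medians (0.53, 1.53 and 1.58). For all tested genes the thick bar spans percentiles 25 to 75 and the thin line percentiles 5 to 95.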

How the data were processed

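Gene expression was measured in 4 libraries, grouped by the labels' titles. For every gene the deposited table holds an expected count in each library and a second set of columns taken here as FPKM, a unit the file headers do not name and that was worked out from the numbers themselves (over 7642 genes the FPKM per count of AAV-IL-27 replicate 1 over replicate 3 was 1.0046, and the ratio of summed counts the other way 1.0046). The deposited group averages were not used. Per the submitters' processing notes, RSEM 1.2.12, HISAT2 2.0.4, DESeq2 1.4.5, Bowtie2 2.2.5 and the build GRCm38.p6 were used, without the role of each. Strand and filters are not given in the sources used here. RSEM-type expected counts divide reads among similar genes, and 17 of the 32 antiviral genes had counts that were not whole in any library. Gm models that share exon bases were found in GENCODE M21 (GRCm38). Smaller overlaps with models on the opposite strand were 5.8% of exon bases for Dhx58, 4.0% for Eif2ak2 and 1.7% for Oasl1. Coordinates and promoter sequences come from RefSeq (GRCm38.p6), to which 16921 of 17039 genes were matched by NCBI Gene number.

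Counts were rounded, filtered with filterByExpr, scaled by TMM and compared with edgeR 4.0.16 in R 4.3.3 (quasi-likelihood, robust, two-sided, no block), with Benjamini-Hochberg adjustment over 12887 genes and a threshold of 0.05. The SE is the log2 fold change divided by the square root of F. FPKM are descriptive. Alternatives were upper-quartile factors, library size alone, scaling to the summed T cell markers, DESeq2 1.42.0, no filter, a replicate block, limma 3.58.1 on log2(FPKM + 1) and leaving out each library. With 1 library left out, the lone library of a group is taken to vary like the other group. On simulated data for this comparison over 12887 genes, 42% of genes changed 1.25-fold and 84% changed 1.5-fold were called. Of those changed 2-fold 94% were called and of those changed 4-fold 100%, as were 29 of 12547 unchanged genes. The changed genes were 50 at each fold, drawn from those with a mean count above 50, far fewer than were called in the data. The 29 are a larger share of the calls than of the unchanged genes. The 32 antiviral genes with a row are all reported, with values per library for those that fell, those that changed most and least, and the highest in each role, and for most others. The genes, the other lists and their grouping were chosen with earlier results of these data known. Some genes of the pathway list are counted but not reported singly here.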

Additional observations from a re-analysis of the deposited data

How the results depend on the processing

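The number of antiviral genes that rose was 19, and 16 to 22 over the alternatives (16 to 22 with a library left out, 20 with the replicate block, where 21.3% of all genes rose and 17.3% fell, which added Ifi27l2a and changed no other call of the set). Replicate numbers were taken as names, since deviations of same-numbered libraries were uncorrelated (r = -0.00071 across 12887 genes). The number that fell was 2, and 1 to 2 with a library left out. Of 352 recomputed values of single genes, 320 kept direction and call, 11 lost the call, 9 gained it and 12 changed sign, all 12 for genes that had not passed. Scaling to the T cell markers moved the median of all genes from -0.01 to -0.12 and that of the set to 0.41. It turned Ifit1 (-0.0059), Ifit3b (-0.0206), Ddx58 (-0.0824), Herc6 (-0.0606) and Sp100 (-0.0035). Ddx58 also turned with library size alone (-0.0149), upper-quartile factors (-0.0156) and limma (-0.0145). With a library left out the log2 fold change ran from -0.16 to 0.44 for Ifit1, -0.22 to 0.51 for Ifit3b, -0.27 to 0.11 for Oasl1 and -0.0005 to 0.0698 for Ddx58. Phf11d was lost in 8 of 11 alternatives. Of the pathway list, 8 genes fell, but 4 by DESeq2 and 3 to 8 with a library left out. Of the relatives, 7 rose (4 to 7 with a library left out) and 2 fell (0 by DESeq2, 4 with library size alone or upper-quartile factors, 0 to 2 with a library left out). Over all genes 2745 rose and 2278 fell by edgeR, 1973 and 1212 by DESeq2, 1599 and 2770 scaled to the T cell markers, 2363 and 2975 with library size alone, 2362 and 2979 with upper-quartile factors, 1646 and 989 without AAV-ctrl replicate 1, and 1690 and 1053 without AAV-ctrl replicate 3. With 2 libraries a group, the cause of these shifts was not tested.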
